A study of Homo sapiens with 4 samples.

Results

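Broad BRPF3 regions were the stretches of the genome over which BRPF3 peaks, joined across 3 lists, ran for 8 kb or more without a break. Peaks of the deposited lists on chromosomes 1 to 22 were merged where they overlapped by 1 bp or more, which gave 13623 regions, and the 375 regions (2.75%) at least 8000 bp long were kept, whichever lists they came from. Width chose these regions, so their width is given as a description and supports no comparison.

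The lists came from chromatin immunoprecipitation and sequencing (ChIP-seq) in RKO cells, an established human colon carcinoma line. In HU cells, synchronisation with 0.5 mM mimosine for 22 h was followed by release for 3 h and treatment with 3 mM hydroxyurea (HU) for 1 h 30 min. Mimosine cells were collected after 22 h in 0.5 mM mimosine, and asynchronous cells grew untreated. Each condition had 1 library made with a homemade rabbit antibody against BRPF3, and 1 rabbit IgG library from HU cells was the control named for all 3 lists. Titles and antibody entries of these libraries name BRPF3 and were followed here, although their description entries name BRPF1 and BRPF2. With 1 library a condition and a control from HU cells alone, differences between lists describe these libraries, carry no p-value, and cannot be told apart from differences between library preparations.

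BRPF3 is a scaffold protein of histone acetyltransferase complexes. It holds the catalytic MYST-family enzyme HBO1 (KAT7) together with the small subunits ING4 or ING5 and MEAF6, and through its bromodomain, PHD fingers and PWWP domain it contacts histone tails and chromatin. HBO1 complexes acetylate histones H3 and H4 and are known both at active genes and at origins of DNA replication. Mimosine holds cells in late G1 phase, before most DNA is copied, and hydroxyurea, an inhibitor of ribonucleotide reductase, stalls replication forks by depleting nucleotides. A peak is a stretch in which reads passed the peak caller's threshold over the control, so its width shows how far the called signal ran without a break and not how much BRPF3 was bound.

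Width in the 375 broad regions had quartiles of 8790 and 12312 bp around a median of 9831 bp, and the 13248 narrower regions had a median of 2902.5 bp. They held 4.35 of the 44.9 Mb under merged regions (9.69%). Most lay near the lower bound, with 178 regions of 10 kb or more, 48 of 15 kb or more, 20 of 20 kb or more and 4 of 30 kb or more. Just inside the threshold were chr20:39655925-39663928 at 8004 bp, chr4:5753273-5761280 at 8008 bp and chr12:123005992-123014035 at 8044 bp. Just outside it were chr1:33114272-33122264 at 7993 bp, chr8:100020994-100028978 at 7985 bp and chr20:57602452-57610399 at 7948 bp. All positions are given in hg19 and counted from 1.

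The mimosine list had no part in the choice. When the HU and asynchronous lists alone were merged, the same 375 regions were obtained with identical coordinates, and a mimosine peak reached an outer end in 0 regions. Coverage by mimosine peaks in these regions was therefore read from a library that the selection did not use, although the width against which it is expressed came from the other lists. The HU peaks reached the left end of 262 regions and the right end of 258, and the asynchronous peaks the left end of 113 and the right end of 117.

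Nearly all broad regions held BRPF3 peaks in every condition. HU peaks were present in 375 of 375 regions (94.7% of all 13623 merged regions held an HU peak), mimosine peaks in 373 (99.5%, exact 95% interval 98.1 to 99.9%; 72.6% of all merged regions) and asynchronous peaks in 375 (91.3% of all merged regions). Regions of 6 to 8 kb, the closest group in width, held a mimosine peak almost as often, in 649 of 653 (99.4%, 98.4 to 99.8% with the mimosine list left out of the merge). Presence of a peak was thus nearly as frequent in the next narrower regions.

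The lists filled the broad regions to different extents. HU peaks covered a median of 99.6% of a region's length (interquartile range 96.3 to 100%), mimosine peaks 68.8% (58.2 to 77.6%) and asynchronous peaks 93.4% (85.9 to 97.8%). The lowest, median and highest covered lengths were 6111, 9647 and 80435 bp in HU cells, 0, 6857 and 29255 bp in mimosine cells, and 3415, 9013 and 80377 bp in asynchronous cells. The distributions overlapped, and mimosine peaks lay lowest. Mimosine peaks covered less than 50% of 41 regions (10.9%, against 44.8% of all merged regions) and asynchronous peaks less than 50% of 4 (1.07%, against 9.30%). The shares of all merged regions count those with no peak of the list, 27.4% for mimosine and 8.7% for asynchronous peaks. Regions of 6 to 8 kb lay close to the broad ones, with 11.5% for mimosine and 1.84% for asynchronous peaks. Coverage of 90% or more was found in 338 regions for HU (90.1%, against 82.7% of all merged regions), 15 for mimosine (against 0.646%) and 242 for asynchronous peaks (64.5%, against 49.3%). HU and asynchronous peaks set the ends of these regions, so their cover, and the width against which mimosine cover is taken, follow in part from the choice. Chosen from the mimosine and asynchronous lists, median cover was 99.1% for HU and 100% for asynchronous peaks.

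**Figure D1:**
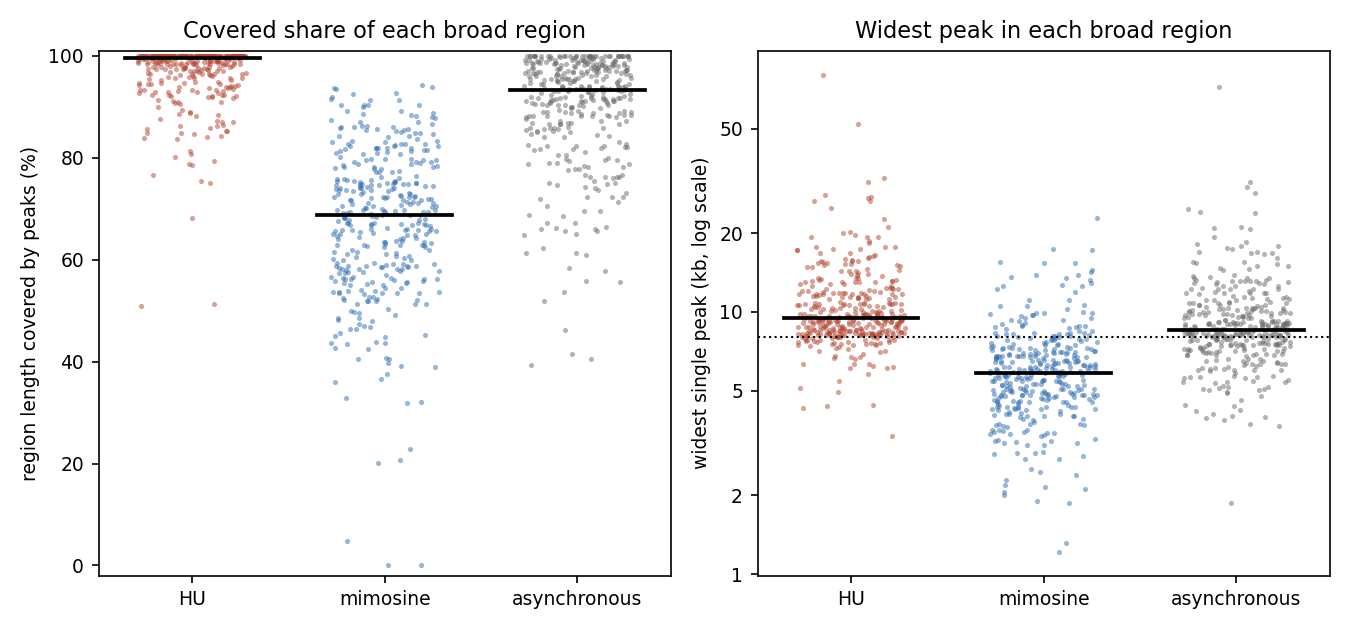
Each point is 1 of the 375 broad regions and each black bar a median over all of them, with the share of the region's length under peaks (%) on the left and the width of its widest single peak (kb, log scale, dotted line at 8 kb) on the right; the 2 regions with no mimosine peak are not drawn on the right. Median covered shares were 99.6% in HU, 68.8% in mimosine and 93.4% in asynchronous cells, and a single peak reached 8 kb in 322, 65 and 241 regions.

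Compared region by region, called length was greater in HU than in mimosine cells in 373 of the 373 broad regions that held both, against 99.9% of all such merged regions. The median ratio of HU to mimosine length was 1.42 (interquartile range 1.26 to 1.66), and 143 regions (38.3%) passed a ratio of 1.5, against 58.3% of all merged regions with both lists. The ratio of mimosine to asynchronous length had a median of 0.766 (0.663 to 0.865). Here 94 of 373 regions (25.2%) were shorter in mimosine cells by 1.5-fold or more, against 41.9% of all merged regions. Both shares lay below those of the whole set, and the 6 to 8 kb regions gave similar ones, 41.9% of 649 for HU over mimosine and 24.9% of 647 for mimosine below asynchronous length. HU and asynchronous lengths lay close together, with a median ratio of 1.052 (0.995 to 1.15). HU length was the greater in 276 of 375 regions (73.6%, against 73.4% of all merged regions with both lists), passed 1.5-fold in 20 (5.33%, against 4.80% of all merged regions), and fell 1.5-fold or more short in 2 (0.533%, against 0.571%).

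Across the broad regions, longer cover in a list went with longer cover in the others. Spearman's rho over 373 regions was 0.73 for HU and mimosine, 0.77 for HU and asynchronous and 0.73 for mimosine and asynchronous covered length. Covered length in every list is bounded by the width of the region, so these values follow in part from the spread of widths. In 6 to 8 kb regions, where width is confined, rho was 0.41, 0.33 and 0.47 in the same order. All values come from 1 library per list with a shared IgG control, and the cut on width limits the HU and asynchronous lengths. The share covered by mimosine peaks was unrelated to region width (rho -0.01), so the wider broad regions were filled to about the same extent as the narrower ones. By width, the median mimosine share was 69.6% for the 197 regions of 8 to 10 kb, 67.0% for the 130 of 10 to 15 kb and 68.7% for the 48 of 15 kb or more, with 67.1% for the 653 regions of 6 to 8 kb. The intervals of these medians overlapped, but they treat regions of 1 library as independent and cannot show that the shares were equal. Below that width the share was lower, 64.9% at 4 to 6 kb and 56.6% at 2 to 4 kb.

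Length outside mimosine peaks lay mostly at the ends, which HU and asynchronous peaks set. In broad regions, 1468 kb lay outside mimosine peaks, of which 237 kb (16.2%) was in gaps between mimosine peaks and the rest at the outer ends or in the 2 regions with no mimosine peak. The widest region alone lost 69246 bp at its right end. Of the length outside HU peaks 11.85% lay in gaps between peaks, and of that outside asynchronous peaks 17.7%, so the other lists also lacked cover mostly at the ends. In 6 to 8 kb regions the shares in gaps were lower, 5.2% for HU, 4.66% for mimosine and 3.74% for asynchronous peaks. The mimosine peaks stopped a median of 1240 bp (554 to 2233 bp) short of the left end and 1008 bp (577 to 1938 bp) short of the right end. HU peaks stopped a median of 0 bp short of each end, and asynchronous peaks 170 and 163 bp short of the left and right ends. Sorted within each region, the shorter of the mimosine trims had a median of 609 bp and the longer 1927 bp, against 572 and 1432 bp in 6 to 8 kb regions. The sorting itself sets the order of these medians. In 6 to 8 kb regions the mimosine trims were smaller, with medians of 894 and 915 bp, as the regions themselves were.

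Along the scaled length of the broad regions, mimosine peaks covered 87.3% of regions averaged over the central 20% of positions and 8.75% over the outermost 5% at each end. HU peaks covered 99.7% and 83.5%, and asynchronous peaks 97.4% and 55.4%. In 6 to 8 kb regions, mimosine cover over the central 20% was 92.5%, higher than in the broad regions, while HU and asynchronous cover there stood at 99.7% and 98.4%. The middle of a broad region was thus called in mimosine cells somewhat less often than that of a region of 6 to 8 kb. In base pairs, 65.7% of the broad length was under peaks of all 3 lists, 21.6% under HU and asynchronous peaks without mimosine, 9.16% under HU peaks alone, 3.03% under asynchronous peaks alone and 0.587% under HU and mimosine peaks without asynchronous. Mimosine peaks alone covered none of it, and the 6 to 8 kb regions had 64.6% of their length under all 3 lists.

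**Figure D2:**
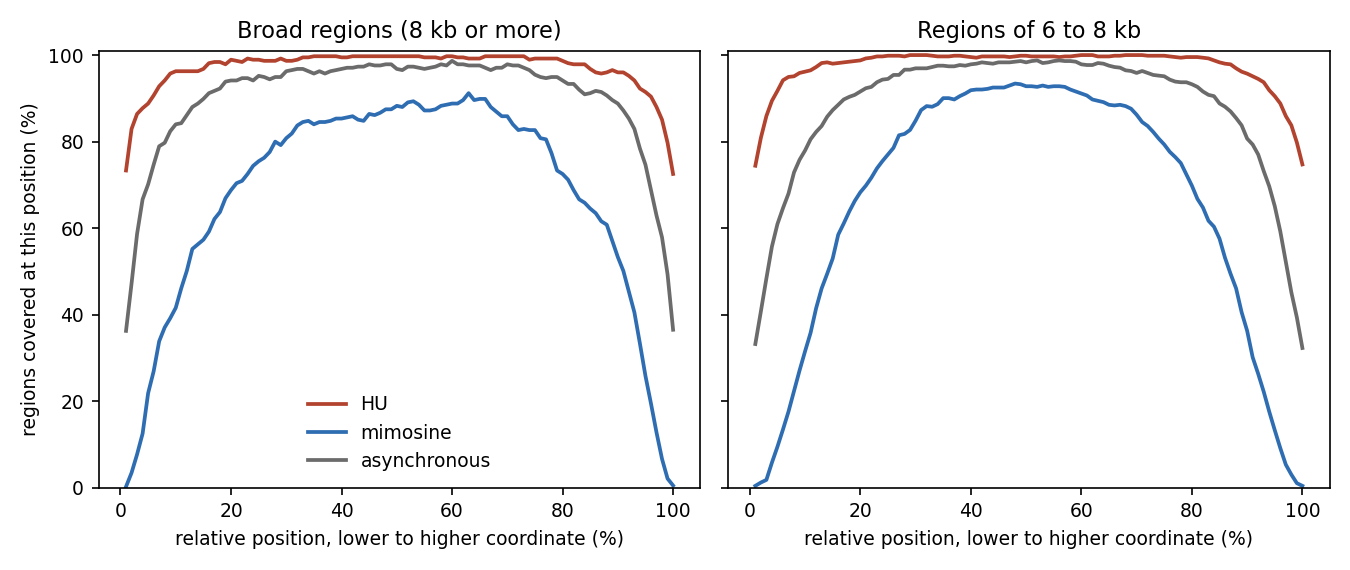
The share of regions (%) that lay under a peak at each of 100 relative positions, from the lower to the higher coordinate, is drawn for the 375 broad regions on the left and the 653 regions of 6 to 8 kb on the right, with 1 line per list. Mimosine cover averaged 87.3% over the central 20% of broad regions against 92.5% in regions of 6 to 8 kb, and was lowest of the lists at both ends.

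Broad regions were broken into several peaks far more often in the mimosine list. More than 1 HU peak was found in 41 regions (10.9%, exact 95% interval 7.96 to 14.5%; 0.984% of all merged regions), more than 1 mimosine peak in 201 (53.6%, 48.4 to 58.7%; 8.50% of all merged regions) and more than 1 asynchronous peak in 99 (26.4%, 22.0 to 31.2%; 2.19% of all merged regions). The 375 regions held 417 HU, 680 mimosine and 497 asynchronous peaks. A single HU and a single asynchronous peak faced several mimosine peaks in 110 regions (29.3%, against 7.30% of all merged regions). Mimosine peaks outnumbered asynchronous ones in 153 regions (40.8%, against 8.30% of all merged regions) and were outnumbered in 29 (7.73%, against 20.2%). The share of 20.2% counts regions with no mimosine peak, which made up 27.4% of all merged regions. In 6 to 8 kb regions, mimosine peaks outnumbered asynchronous ones in 21.9% and were outnumbered in 3.83%, so both shares were higher in broad regions. Longer regions have more room to break, so breaks were also counted per 10 kb of region. There were 0.0966 HU, 0.706 mimosine and 0.281 asynchronous gaps per 10 kb of broad region, against 0.0703, 0.469 and 0.136 per 10 kb of 6 to 8 kb region. The mimosine rate was the higher in broad regions, and no test was made because it comes from 1 library. The HU and asynchronous rates follow in part from the choice of regions, since a gap in either list lay inside a region only where another list bridged it. Chosen without the asynchronous list, 322 regions held 322 HU peaks, and chosen without the HU list, 251 regions held 261 asynchronous peaks.

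The gaps were short. Mimosine gaps had a median of 217 bp (interquartile range 70 to 896 bp, longest 11225 bp), HU gaps 250 bp (longest 1643 bp) and asynchronous gaps 224 bp (longest 5254 bp). Where a region was broken in the mimosine list, the widest mimosine peak had a median of 5242 bp and held a median of 71.1% of the called length, and in 185 of the 201 regions (92.0%) it also had the highest score. The other 307 mimosine pieces had a median width of 1256 bp and a median score of 115, and 138 of them (45.0%) scored below 100. Low scores follow in part from setting aside each region's widest peak. Of all 680 mimosine peaks in broad regions, 139 (20.4%) scored below 100, close to the 21.1% of the whole mimosine list on these chromosomes. The pieces left in the same way in the HU and asynchronous lists scored below 100 in 38.1% of 42 and 36.1% of 122. In broken regions the widest mimosine peak thus mostly had the top score as well. The same held for the widest HU peak in 36 of 41 broken regions (87.8%) and the widest asynchronous peak in 90 of 99 (90.9%). The score is the authors' own and was read, from the layout of the lists, as 10 times the negative log10 of the caller's p-value.

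**Figure D3:**
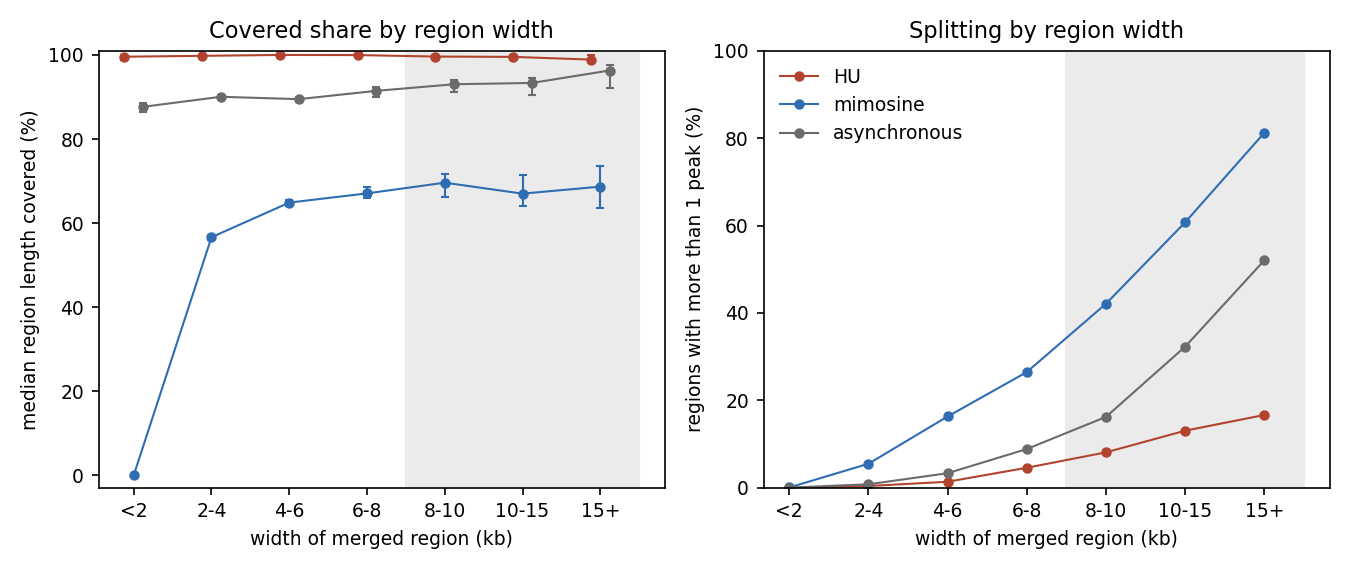
Merged regions are grouped by width (kb), the broad ones shaded, with the median share of length covered (%) and its 95% interval on the left and the share of regions holding more than 1 peak (%) on the right, 1 line per list. Median mimosine cover stayed between 67.0 and 69.6% in the shaded groups, while the share of regions with several mimosine peaks was 42.1%, 60.8% and 81.2%.

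Breaks became more frequent with width in every list. At 15 kb or more, 16.7% of the 48 regions held several HU peaks, 81.2% several mimosine peaks and 52.1% several asynchronous peaks. At 8 to 10 kb the values were 8.12%, 42.1% and 16.2%. The most fragmented regions in mimosine cells held 7 peaks. In chr7:81139977-81168132, 28.2 kb long, a single HU peak of 27.9 kb faced 7 mimosine peaks that covered 67.2% and 3 asynchronous peaks that covered 90.6%, and the longest mimosine piece was 9.73 kb. In chr1:154932499-154950398, 17.9 kb long, HU cells had 1 peak of 17.4 kb, mimosine cells 7 peaks over 75.7% of the length and asynchronous cells 1 peak across the whole region. The mimosine pieces there ranged in width from 526 to 3729 bp, with scores from 51.2 to 2453. The third, chr3:115068007-115081995, held 1 HU peak over 94.4%, 7 mimosine peaks over 47.9% and 3 asynchronous peaks over 90.3% of 14.0 kb.

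A single peak of 8 kb or more lay behind most, but not all, broad regions. HU cells had such a peak in 322 regions (85.9%; 2.36% of all merged regions), mimosine cells in 65 (17.3%; 0.477%) and asynchronous cells in 241 (64.3%; 1.77%). Since the width rule acts on these peaks, the counts describe the selection. All 3 lists had a peak of that width in 64 regions, HU and asynchronous cells without mimosine cells in 145, HU cells alone in 112 and asynchronous cells alone in 32. In the other 21 regions no single peak reached 8 kb, and the width came from peaks of different lists that overlapped end to end. The widest of these chained regions that held mimosine peaks was chr12:75873443-75884398, with 2 HU peaks over 97.5%, 2 mimosine peaks over 49.2% and 2 asynchronous peaks over 70.6% of 10956 bp. Another, chr2:188411453-188420199, had the most HU peaks of any broad region, 3, beside 2 mimosine peaks over 20.8% and 3 asynchronous peaks over 91.6% of its length.

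Regions chosen in 2 lists were also read in the left-out list, where a single peak of 8 kb or more was found in most regions for HU and asynchronous cells and in few for mimosine cells. The mimosine and asynchronous lists alone gave 251 regions of 8 kb or more, and the HU list held peaks in 251 of them, covered a median of 99.1% (interquartile range 95.04 to 100%) and had a single peak of 8 kb or more in 219 (87.3%). Among the 407 regions of 6 to 8 kb from the same pair, HU cells had such a peak in 87 (21.4%). The HU and mimosine lists alone gave 322 regions, in which the asynchronous list covered a median of 93.0% (84.4 to 97.6%) and had a peak of 8 kb or more in 209 (64.9%), against 30 of 591 (5.08%) regions of 6 to 8 kb. The HU and asynchronous lists alone gave the 375 regions, with a mimosine peak of 8 kb or more in 65 (17.3%) and, in regions of 6 to 8 kb, in 0 of 653. That 0 was fixed by the identical regions, since a mimosine peak of such width would have made its region broad with all lists merged.

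Broad regions mostly held high-scoring peaks. The authors' score does not resolve the strongest peaks, since it piles up at exactly 3100, and a best peak at or above that value was found in 256 broad regions in HU cells (68.3%; 7.07% of all merged regions), 148 in mimosine cells (39.5%; 2.43%) and 282 in asynchronous cells (75.2%; 7.10%). All 3 lists reached it in 143 regions (38.1%, against 2.36% of all merged regions) and none did in 83 (22.1%, against 91.6%). In 6 to 8 kb regions the shares were 47.3%, 15.9% and 45.9%. Score and width come from the same peaks, so these shares are a description. Within the broad regions, rho between width and the score of the best peak was -0.03 for HU, 0.08 for mimosine and -0.00091 for asynchronous peaks over 373 regions. Scores above 3100 were set to 3100, and the many ties there limit what rho can show. The best mimosine peak reached 3100 in 35.5% of regions of 8 to 10 kb, 39.2% of 10 to 15 kb and 56.25% of 15 kb or more. In the same order the shares were 68.0%, 70.8% and 62.5% for HU and 75.6%, 74.6% and 75% for asynchronous peaks.

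Mimosine cover was higher where the other lists scored higher. In the 247 broad regions where both the HU and the asynchronous best peak reached 3100, mimosine peaks covered a median of 72.1% (interquartile range 64.2 to 79.7%, 95% interval of the median 70.1 to 73.9%), and 48.2% of the regions were broken in the mimosine list. In the 84 where neither reached it, the median was 57.8% (47.3 to 69.1%, interval 53.6 to 62.4%), and 69.0% were broken. The 6 to 8 kb regions gave 72.9% in 258 and 61.3% in 302. The number of reads behind the lists is unknown, so how much of this follows depth was not tested.

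The widest region did not follow the common pattern. In chr7:130568466-130648968, 80.5 kb long, HU cells had a single peak of 80.4 kb with a score of 74.5, which put it at rank percentile 9.46 of the HU list. Mimosine cells had peaks of 2.20 and 1.67 kb with scores of 101.9 and 99.8, the further of which ended 69246 bp short of the region's right end. Asynchronous cells had peaks of 8.36 and 72.0 kb with scores of 196 and 1256. HU and asynchronous peaks thus spanned the region, at low score in HU cells, while mimosine peaks covered 4.81% of it, less than in any other broad region with a mimosine peak. The next widest, chr9:21546407-21598685 at 52.3 kb, was a single HU peak of score 2386. Mimosine cells had there long peaks of 17.4 and 10.0 kb, both at a score of 3100, and 3 short pieces of 713, 630 and 515 bp. Asynchronous cells had long peaks of 28.4 and 16.0 kb at 3100 and 3 shorter peaks. The long mimosine peaks lay inside the long asynchronous ones, while the HU call ran across the stretch between them.

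**Figure D4:**
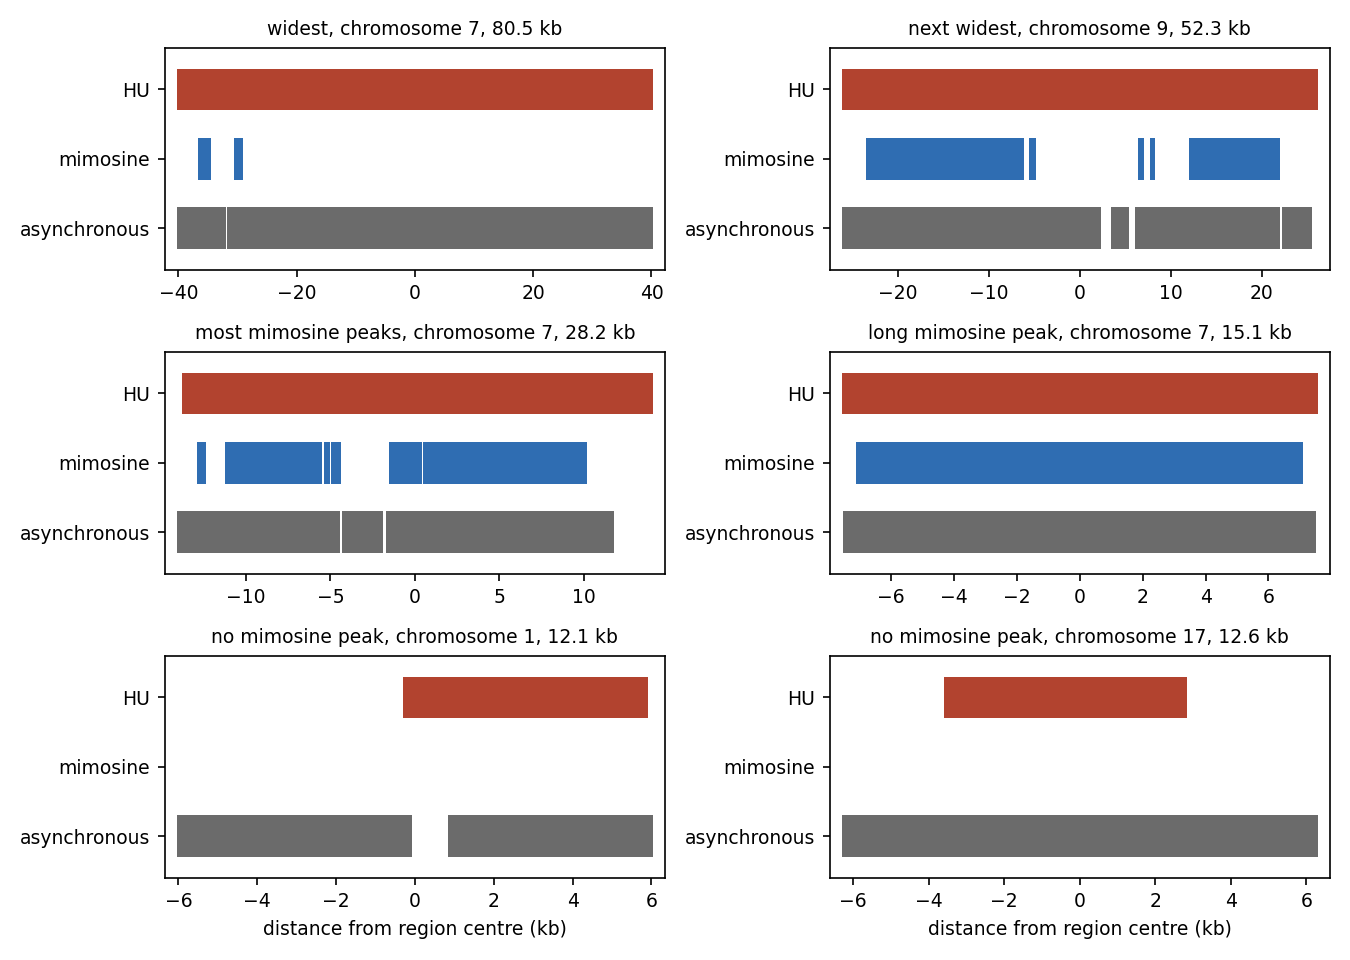
Peaks of the HU, mimosine and asynchronous lists are drawn to scale as bars in 6 broad regions (gaps of a few bp are too small to be seen), with the distance from the region's centre (kb) on the horizontal axis. Mimosine peaks covered 4.81% of the widest region, 56.0% of the next, 67.2% of that with 7 mimosine peaks, 93.8% of the 15.1 kb region on chromosome 7, and none of the last 2, which lie on chromosomes 1 and 17.

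In the other 8 of the 10 widest regions, mimosine cover lay between 61.9 and 82.6%, and the best mimosine peak scored 2522 or more. In chr12:66023805-66059374, 35.6 kb long, HU peaks covered 99.9%, mimosine peaks 74.9% in pieces of 12.7, 11.8 and 2.12 kb, and asynchronous peaks 92.9%. In chr10:31264911-31296220, 31.3 kb long, HU and asynchronous cells each had 1 peak across nearly the whole length, and mimosine cells had the widest peak of their broad regions, 22.9 kb, with 2 short pieces. In chr17:7736931-7763508, 26.6 kb long, 1 HU peak covered 100%, 5 mimosine peaks 63.2% and 4 asynchronous peaks 76.2%, and the longest mimosine and asynchronous peaks, of 8.18 and 8.16 kb, overlapped over nearly all of their length. The HU list was not broken there.

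Regions at the extremes of mimosine cover differed in score. The 5 with the highest cover were chr10:77157683-77165894 (94.2%), chr7:27199470-27214606 (93.8%), chr17:27045548-27056111 (93.8%), chr3:5018366-5029655 (93.4%) and chr7:5458509-5467067 (92.7%). In all 5, the best HU and asynchronous peaks scored 3100, and HU peaks covered 100%. The region on chromosome 7 at 27.2 Mb was the widest of them at 15.1 kb, with a single peak of 15.1 kb in HU, 14.2 kb in mimosine and 15.03 kb in asynchronous cells. After the widest region, the lowest mimosine cover was in chr9:68449290-68458804 (20.04%), chr2:188411453-188420199 (20.8%), chr7:84298233-84306417 (22.8%) and chr7:81242640-81250872 (31.9%). Their best HU scores were 151, 895, 1210 and 828, their best mimosine scores 72.7, 258, 316 and 154, and their best asynchronous scores 221, 1046, 605 and 118. None of these reached 3100 in any list.

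Mimosine peaks were absent from 2 broad regions. In chr1:161416684-161428760, 12.1 kb long, HU cells had a single peak of 6.20 kb with a score of 115, and asynchronous cells had peaks of 5.95 and 5.20 kb with scores of 50.3 and 129. In chr17:39257835-39270443, 12.6 kb long, HU cells had peaks of 5.14 and 1.27 kb with scores of 360 and 51.4, and asynchronous cells had a single peak of 12.6 kb with a score of 794. HU peaks covered 51.4% and 50.9% of these regions, the lowest HU cover among the 375, and both were the only regions in which HU length was 1.5-fold or more below asynchronous length. In chr8:141591194-141605574 the order of the lists was another, with 1 HU peak over 100%, 2 mimosine peaks over 64.0% and 1 asynchronous peak over 39.3% of 14.4 kb. This was among 15 broad regions (4.02% of 373) with greater called length in mimosine than in asynchronous cells, against 2.09% of all merged regions, and in each of the 15 a single HU peak covered the whole region. It was also the only broad region in which mimosine length passed asynchronous length by 1.5-fold (0.268%, against 0.102% of all merged regions).

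Broad regions were unevenly spread over the chromosomes. Chromosome 1 held the most, 40 of its 1482 regions (2.70%). The share that was broad was highest on chromosome 8, with 32 of 494 (6.48%, exact 95% interval 4.47 to 9.02%), followed by chromosome 9 with 32 of 597 (5.36%, 3.70 to 7.48%), chromosome 10 with 28 of 572 (4.90%, 3.28 to 6.997%) and chromosome 12 with 32 of 776 (4.12%, 2.84 to 5.77%). These 4 chromosomes carried 124 broad regions, 33.1% of them, and 17.9% of all merged regions. Chosen without the HU list, the share fell to 2.62% (1.44 to 4.36%) on chromosome 10, and was 5.42% on chromosome 8, 3.72% on chromosome 9 and 3.20% on chromosome 12. Under that choice it was also over 1.5-fold lower on chromosomes 1 (1.72%), 13 (0.418%), 16 (0.513%), 17 (1.20%), 19 (0.870%), 20 (1.49%) and 22 (0.932%). Over all chromosomes the choice gave 251 broad and 12606 narrower regions, against 375 and 13248 with 3 lists. A part of these falls was thus shared by the whole set. Chromosome 19, with 955 regions, had 18 broad ones (1.88%, 1.12 to 2.96%), and chromosomes 13 and 18 had 2 each. The number of broad regions per chromosome rose with the number of regions (Spearman's rho 0.68 over 22 chromosomes), and the share that was broad had a weak relation to it (rho 0.24). The intervals cover counting error only and treat regions as independent, while broad regions lay in groups. Median mimosine cover ranged by chromosome from 60.2% on chromosome 13, with 2 regions, to 88.8% on chromosome 21, with 3, and lay between 64.95 and 75.4% on the chromosomes with 5 or more.

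**Figure D5:**
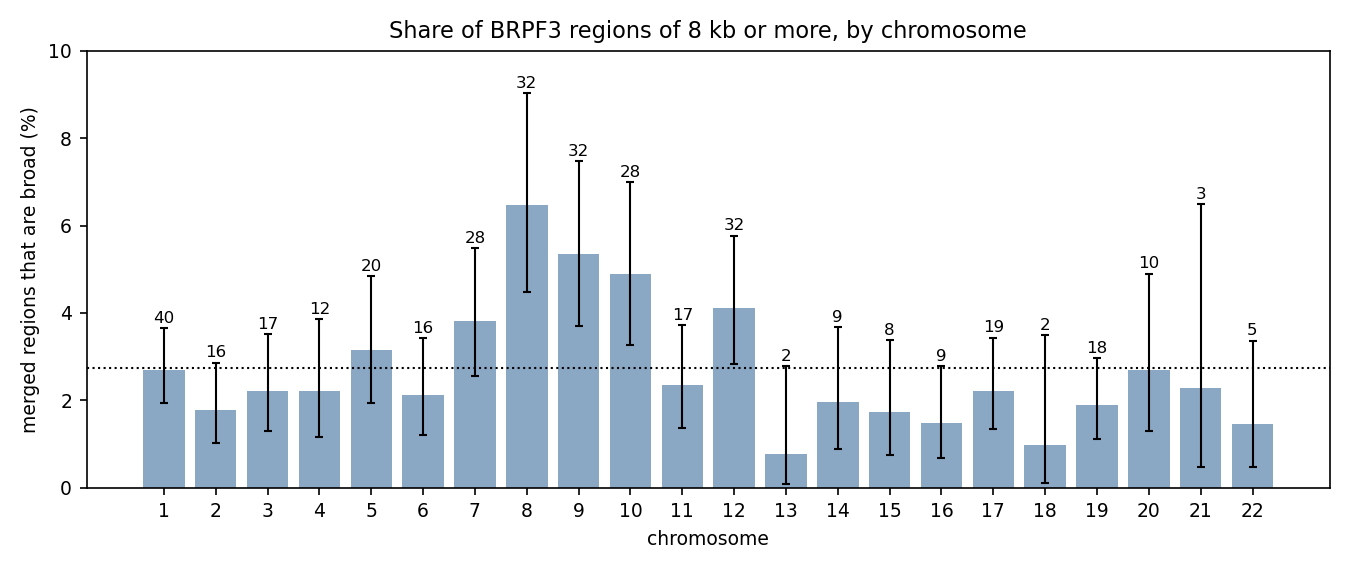
Bars give the share of merged BRPF3 regions on each chromosome that were 8 kb or wider (%), with exact 95% intervals for counting error, the number of broad regions above each bar and a dotted line at the 2.75% of all chromosomes. Chromosome 8 stood highest at 6.48%, and chromosomes 9, 10 and 12 also had intervals wholly above the line. Chosen without the HU list, the share on chromosome 10 was 2.62%. The line does not apply to that choice, which gave 251 broad and 12606 narrower regions over all chromosomes, a lower share than 2.75%.

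The widest broad region of a chromosome was 9185 bp on chromosome 13, at chr13:80908654-80917838, and 10076 bp on chromosome 18, at chr18:29256176-29266251. On chromosomes 19 and 20 it was 14.9 kb, at chr19:51194991-51209907 and chr20:30297729-30312648. On chromosome 16, chr16:56639466-56654099 spanned 14.6 kb with 98.4% HU, 88.1% mimosine and 100% asynchronous cover. On chromosome 8, chr8:145731939-145755630 spanned 23.7 kb with 96.4% HU, 72.6% mimosine and 96.6% asynchronous cover. On chromosome 3, chr3:101643901-101663167 spanned 19.3 kb, and there a single HU peak across the region scored 678, against 2141 for the better of 2 asynchronous peaks. The 6 mimosine peaks of that region covered 64.4%. On chromosome 22, chr22:30637342-30655326 spanned 18.0 kb, with best scores of 1237 in HU, 1609 in mimosine and 1134 in asynchronous cells, all under 3100.

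Broad regions lay closer to other BRPF3 sites and to each other than narrower ones did. The nearest other region was a median of 12.1 kb away (interquartile range 2.38 to 39.7 kb), against 22.6 kb for 6 to 8 kb regions and 27.4 kb for all narrower regions. A neighbour within 10 kb was found for 176 of 375 (46.9%), against 212 of 653 (32.5%) and 3779 of 13248 (28.5%). The nearest broad region was a median of 817 kb away for broad regions, 1531 kb for 6 to 8 kb regions and 2056 kb for all narrower regions. Within 1 Mb, 202 broad regions (53.9%) had another broad region, against 43.6% of 6 to 8 kb regions and 35.1% of all narrower regions. These distances were measured from edge to edge, and no test was made because neighbouring regions are not independent.

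Joined across gaps of up to 500 kb, a distance chosen after the values were seen, 154 broad regions (41.1%) fell into 58 groups of 2 or more, and 10 groups held 4 or more. The largest, of 6 broad regions, spanned chr17:7134804-8288400, where 84.9 kb was broad among 42 narrower regions. Groups of 5 spanned chr7:81139977-81666408, chr11:65183500-65690773, chr12:75873443-76431454 and chr10:112056624-112336718. In the densest of the 10 groups of 4 or more, chr9:21546407-21814395, 4 broad regions filled 34.9% of 268 kb, with 2 narrower regions between them. Over the summed broad length of these groups, mimosine peaks covered 66.8% on chromosome 17, 62.8%, 76.4%, 57.3% and 65.6% in the groups of 5 in the order given, and 57.6% on chromosome 9. HU cover in these 6 groups lay between 98.3 and 99.9% and asynchronous cover between 83.6 and 94.0%. The nearest pairs were almost continuous, with 53 bp between chr7:84286412-84298179 and chr7:84298233-84306417, and 126 bp between chr11:65653625-65673224 and chr11:65673351-65690773. The first of these pairs is 11768 and 8185 bp wide and the other 19600 and 17423 bp.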

How the data were processed

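For each BRPF3 library the authors deposited 1 list of peak positions with a score. From the layout of the lists and a minimum of 50, the deposited score was read as 10 times the negative log10 of the caller's p-value. Per the submitters' processing notes, Bowtie 0.12.8, SAMtools, MACS 1.4.0, bedtools, hg18 and hg19 were involved, with no settings or order given. Peaks on chromosome 1 run past its end in hg18 and GRCh38, so positions are read as hg19. Reads were not analysed here, so depth is unknown. No genome or annotation of hg19 was used, so genes and sequences are not given.

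Peaks were merged, and covered length, gaps, end trims, rank percentiles (scores above 3100 set to 3100) and distances were computed in Python (3.11.15) using SciPy (1.17.1), NumPy (2.4.6) and pandas (2.3.3), with plots from matplotlib (3.10.9), after the code was tested on simulated data. Shares have exact Clopper-Pearson 95% intervals and medians order-statistic 95% intervals, for counting error only. Named regions were the widest overall and per chromosome, those of lowest and highest mimosine cover, those without mimosine peaks, those of most peaks, nearest pairs and those next to the threshold; the chained regions, groups and chr8:141591194-141605574 were picked with their values already seen. The broad regions and all measures were chosen with earlier results of these data known. Alternatives changed the score cut, merging, width, chromosomes and lists.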

Additional observations from a re-analysis of the deposited data

How the results depend on the processing

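Sensitivity was judged on 13 values, the alternatives having been set with earlier results of these data known. Leaving the mimosine list out of the merge returned the same 375 regions, so the 13 values could not change and this was no check. All 13 stayed within 1.5 times or inside their 95% interval when chromosome X was added (379 regions) and when a single peak had to span 8 kb (354 regions). At a score of 100 or more, median mimosine cover was 66.0%, and the other 12 held. Chosen from HU and mimosine lists, mimosine peaks were in 100% of 322 regions and covered a median of 72.1%.

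With gaps of up to 1 kb merged, median cover was 98.3% HU, 63.7% mimosine and 90.3% asynchronous, HU peaks numbered 655, the median best mimosine rank percentile was 94.8 and the median distance to the next broad region 658 kb. Chosen from mimosine and asynchronous lists, mimosine cover was 75.98% and asynchronous cover 100%, with 446 mimosine and 261 asynchronous peaks, a mimosine rank percentile of 96.3 and at most 25 regions on 1 chromosome. A threshold of 10 kb left 178 regions, 203 HU, 380 mimosine and 266 asynchronous peaks, at most 20 regions on 1 chromosome and a distance of 1654 kb. A threshold of 6 kb gave 1028 regions, 1101 HU, 1536 mimosine and 1207 asynchronous peaks, at most 103 regions on 1 chromosome, a rank percentile of 92.3 and a distance of 270 kb. The counts and distances under other widths move with the number of regions. Cover under another choice of lists is a share of the width that those lists set. For the remaining values the cause was not tested. Mimosine cover stayed lowest of the lists under every alternative. No paired analysis was possible because each condition had 1 library. Gene content and sequence were not run, and the unknown depth limits what an absent peak means.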

Other observations

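Chromosome X, outside the selection, held 4 merged regions of 8 kb or more. In chrX:45609104-45636580, 27.5 kb long, HU peaks covered 86.7%, mimosine peaks 58.2% and asynchronous peaks 99.0% of the length. In chrX:153595329-153603808 the shares were 100% in HU, 59.3% in mimosine and 86.0% in asynchronous cells, and in chrX:16196280-16204559 they were 99.3%, 45.6% and 83.2% in the same conditions. Mimosine cover was the lowest of the lists in these 3 regions. The remaining region, chrX:114985778-114997788, was covered by an asynchronous peak alone, a combination found in 0 of the 375 broad regions on chromosomes 1 to 22.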
